A study of Mus musculus with 48 samples.

Results

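Cholesterol and fatty acids are made from acetyl-CoA, and the genes of both routes were followed here in the stroma of mouse lymph nodes with lymphoma. The set was 30 named genes, namely the enzymes of the mevalonate pathway and of the sterol ring, the sterol sensors that control them, the enzymes of fatty acid synthesis and the sterol carrier Stard4. Members were taken by symbol wherever a probe of the value table was annotated to the gene, with the brightest probe standing for it. A probe was found for 27 of the 30, Acaca (acetyl-CoA carboxylase) lay below the background level in every group, and 26 were tested among 13163 genes. Acat2, Hmgcs1 and Fdft1, whose products act at the start of the mevalonate pathway and at the step to squalene, were not analysed here.

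Cells came from skin-draining lymph nodes of mice given Eμ-Myc lymphoma B cells (tumor) and of wild-type controls (naive). In the tumor group, 200000 to 400000 cells were injected intravenously per mouse, and lymphoma cells made up on average 4% to 10% of the lymphocytes of the node. After leukocyte depletion with CD45 beads, live cells negative for CD45 and Ter119 were sorted into fibroblastic reticular cells (FRC, CD31-gp38+), blood endothelial cells (BEC, CD31+gp38-), lymphatic endothelial cells (LEC, CD31+gp38+) and a double negative fraction (DN). Each of the 8 groups held 3 biological replicates on 2 array strips each, and each replicate pooled 80 ng of RNA out of 4 to 6 sorts. The labels do not say that replicates came from separate animals, so the p-values measure the spread between these pools.

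In the mevalonate pathway acetyl-CoA is turned into isoprene units, which are joined to squalene, and squalene is then closed and trimmed to cholesterol. The genes are driven together by SREBP transcription factors. When membranes of the endoplasmic reticulum run low in cholesterol, the sensor SCAP escorts SREBPs to the Golgi for cleavage, and INSIG proteins hold them back when cholesterol is plentiful. Dividing cells need sterols and fatty acids for new membrane, and in lymph nodes stromal cells also make oxysterols that guide lymphocytes carrying the receptor GPR183.

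Signals are log2 values, so a difference of 1 is a doubling. Strips of 1 replicate correlated at 0.976 to 0.9954 and replicates of 1 group at 0.9246 to 0.9938. The DN pools varied most: replicate 3 of the tumor group and replicate 2 of the naive group differed from the other pools of their groups by a median of 0.38 and 0.469. Each slide held 1 cell type, so that cell type and slide cannot be told apart, and tumor and naive pools kept fixed places on every slide, so that place and state cannot be told apart either. Fewer cells of a type and less RNA per cell cannot be told apart in such sorted pools.

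FRCs showed the broadest difference. In FRCs of tumor mice 9 of the 26 members were higher than in naive mice and none was lower (limma, Benjamini-Hochberg adjusted over 13163 genes). That is 34.6% of the members, against 6.38% of all genes called higher and 4.1% called lower. The median change over the members was 0.38, against -0.03 over all genes tested. The 9 were Mvk, Pmvk, Mvd and Fdps of the mevalonate steps, Sqle, Lss, Cyp51 and Msmo1 of the sterol ring steps, and the fatty acid elongase Elovl6. In 13 members every tumor replicate lay above every naive replicate, against 19.4% of all genes, and in 1 member, Scd1, every tumor replicate lay below, against 19.9% of all genes.

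**Figure D1:**
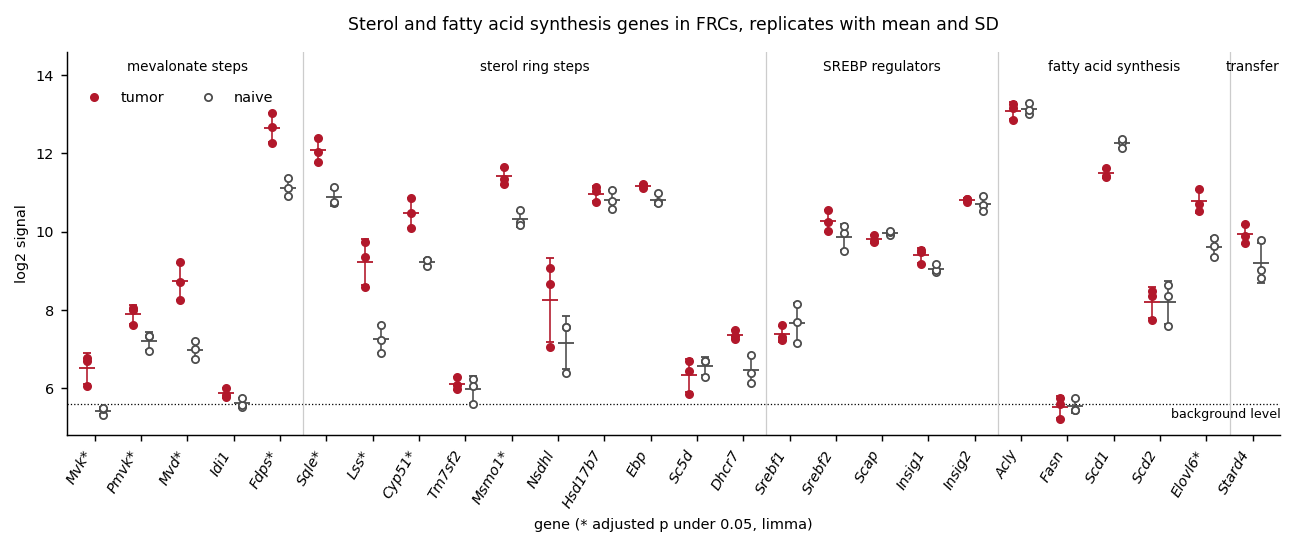
Log2 signal of the 26 tested genes in FRCs, with 3 tumor pools (filled, left) and 3 naive pools (open, right) per gene, and bars for mean and SD. The 9 starred genes passed an adjusted p of 0.05 and all were higher in tumor mice, while none of the SREBP regulators passed.

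Several of these genes have a promoter window in RefSeq (GRCm38.p6), reaching from 250 bases before to 50 bases after the start of the transcript. Shown are the windows of the 5 FRC genes that rose and whose only window holds a CCAAT box, the element bound by NF-Y, a partner of SREBPs. Capitals mark CCAAT, or ATTGG where the box lies on the other strand, and each sequence runs 5′ to 3′ on the strand of its gene.
Mvk (chr5:114444019-114444318, + strand): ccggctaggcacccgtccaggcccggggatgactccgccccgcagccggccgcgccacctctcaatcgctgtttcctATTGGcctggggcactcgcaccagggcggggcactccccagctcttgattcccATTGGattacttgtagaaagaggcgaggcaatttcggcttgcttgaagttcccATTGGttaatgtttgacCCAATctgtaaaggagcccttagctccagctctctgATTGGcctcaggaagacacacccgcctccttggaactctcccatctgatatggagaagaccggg
Mvd (chr8:122443373-122443672, - strand): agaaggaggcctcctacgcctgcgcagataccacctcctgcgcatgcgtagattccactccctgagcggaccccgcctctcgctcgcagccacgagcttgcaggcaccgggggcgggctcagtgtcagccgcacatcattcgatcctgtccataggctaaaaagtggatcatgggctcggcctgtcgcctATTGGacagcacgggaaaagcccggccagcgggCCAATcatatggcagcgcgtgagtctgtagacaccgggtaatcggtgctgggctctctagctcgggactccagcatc
Lss (chr10:76531355-76531654, + strand): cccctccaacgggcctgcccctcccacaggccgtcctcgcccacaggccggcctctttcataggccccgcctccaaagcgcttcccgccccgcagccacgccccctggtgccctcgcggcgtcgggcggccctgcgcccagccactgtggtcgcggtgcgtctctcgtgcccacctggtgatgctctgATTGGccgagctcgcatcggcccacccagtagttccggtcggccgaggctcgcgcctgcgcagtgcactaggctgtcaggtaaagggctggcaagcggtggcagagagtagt
Cyp51 (chr5:4104648-4104947, - strand): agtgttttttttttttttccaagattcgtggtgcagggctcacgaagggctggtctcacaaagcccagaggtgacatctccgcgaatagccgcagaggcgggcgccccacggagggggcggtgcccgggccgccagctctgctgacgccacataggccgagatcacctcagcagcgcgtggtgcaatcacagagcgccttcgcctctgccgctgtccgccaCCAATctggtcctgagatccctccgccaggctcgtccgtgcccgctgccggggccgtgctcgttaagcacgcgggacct
Msmo1 (chr8:64733529-64733828, - strand): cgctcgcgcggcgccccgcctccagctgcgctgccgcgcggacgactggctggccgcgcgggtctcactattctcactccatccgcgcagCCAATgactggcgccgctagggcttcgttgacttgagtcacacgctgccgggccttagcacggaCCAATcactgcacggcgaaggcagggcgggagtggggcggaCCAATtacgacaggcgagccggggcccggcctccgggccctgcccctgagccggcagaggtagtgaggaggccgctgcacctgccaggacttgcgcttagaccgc
The Mvk window held 5 boxes, that of Msmo1 held 3, that of Mvd 2, and those of Lss and Cyp51 held 1 each. Counted from the start, the Lss box lay at -62 and the Cyp51 box at -29.

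A window was found for 24 of the 30 members, 32 windows in all, and for 7 of the 9 genes that rose in FRCs; Fdps and Sqle had none in the table. CCAAT, searched on both strands, was present in 6 of those 7 genes and in 19 of the 21 tested members with a window. Of all 32851 windows of that length 37.4% held it, and 41.1% of 27025 genes. The Elovl6 window held none of the 3 motifs searched. A sterol regulatory element, spelled TCACNCCAC, was present in 1 of the 24 members with a window, Hmgcs1, whose expression was not analysed here, and in none of the 21 tested members, against 1.44% of all genes, and the palindromic E-box CACGTG in 5 of the 21 but in none of the 7, against 8.09% of genes. No match of one motif overlapped a match of another in these windows. Each motif was searched in the single spelling given, so sites spelled otherwise were not counted. These letters describe the sequence only and say nothing of binding.

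Among the mevalonate steps, 4 of the 5 tested genes rose in FRCs, with a median change of 1.09, which was that of Mvk. Fdps, which joins isoprene units to farnesyl diphosphate (chr3:89093588-89101967), measured 12.68, 13.02 and 12.28 in tumor FRCs, against 11.11, 11.38 and 10.90 in naive FRCs. Even the lowest tumor pool lay well above the highest naive pool, and the change was 1.53 (SE 0.27, 2.89-fold, limma adjusted p = 0.00138). A second, dimmer Fdps probe changed by 0.88.

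Mvd, the decarboxylase that makes the first isoprene unit, measured 8.72, 9.22 and 8.25 in tumor FRCs, against 6.74, 7.20 and 6.99 in naive FRCs. The groups did not overlap, and the change was 1.75 (SE 0.38, 3.37-fold, limma adjusted p = 0.00554). Mvk, the mevalonate kinase, measured 6.70, 6.79 and 6.06 in tumor FRCs, against 5.33, 5.46 and 5.50 in naive FRCs. All 3 naive values lay below the background level of 5.61, which is set 3 SD above the mode of the dim probes. With the naive group set at that level, Mvk was 1.88-fold higher on this scale. The limma adjusted p of 0.038 belongs to the change of 1.09 in the values themselves. In bead-level values without background correction, an alternative, the change was 0.62.

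Pmvk, the phosphomevalonate kinase, measured 7.998, 8.051 and 7.613 in tumor FRCs, against 6.950, 7.344 and 7.339 in naive FRCs. It had the smallest change of the 9, 0.68 (SE 0.20, limma adjusted p = 0.032), although the groups did not overlap. The call was lost in 13 of 21 alternatives, among them the values without quantile normalization (adjusted p = 0.0657 in limma) and either strip alone. Idi1, the isomerase that interconverts the isoprene units, measured 5.77, 6.01 and 5.84 in tumor FRCs, against 5.53, 5.57 and 5.76 in naive FRCs, near the background level, with an adjusted p of 0.383 in limma.

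Of the 10 sterol ring genes, 4 rose in FRCs and 6 did not pass. The median change was 1.00. Sqle, the squalene epoxidase and a rate-limiting enzyme of the route (chr15:59315092-59331193), measured 11.78, 12.40 and 12.05 in tumor FRCs, against 10.74, 10.75 and 11.14 in naive FRCs. The change was 1.20 (SE 0.30, 2.29-fold, limma adjusted p = 0.0156), and a second Sqle probe above background changed by 1.40.

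Lss, the cyclase that closes squalene epoxide into lanosterol, had the largest change of any member in FRCs. It measured 9.36, 9.73 and 8.58 in tumor FRCs, against 7.24, 7.62 and 6.91 in naive FRCs, a change of 1.97 (SE 0.42, 3.91-fold, limma adjusted p = 0.0058). The groups did not overlap. A second Lss probe just above background stood at 6.09 and 6.00 and changed by 0.09, so the 2 probes of this gene disagree. With the mean over both, the change was 1.03 (limma adjusted p = 0.0352).

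Cyp51, the lanosterol demethylase, measured 10.47, 10.85 and 10.09 in tumor FRCs, against 9.11, 9.27 and 9.27 in naive FRCs. The naive values lay close to each other and well below every tumor value, and the change was 1.25 (SE 0.24, 2.38-fold, limma adjusted p = 0.00268). Msmo1, the sterol methyl oxidase, measured 11.36, 11.65 and 11.23 in tumor FRCs, against 10.26, 10.18 and 10.55 in naive FRCs, a change of 1.08 (SE 0.30, limma adjusted p = 0.0239) without overlap.

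The other sterol ring genes did not pass in FRCs. Dhcr7, the reductase of the last step to cholesterol, measured 7.270, 7.348 and 7.4998 in tumor FRCs, against 6.383, 6.848 and 6.145 in naive FRCs, without overlap and with an adjusted p of 0.0927 in limma. Nsdhl, a sterol dehydrogenase that acts with Msmo1, had a change of 1.10 (adjusted p = 0.09 in limma) but spread over 7.05 to 9.08 in tumor FRCs and 6.39 to 7.55 in naive FRCs. Ebp, the sterol isomerase, changed by 0.35, Hsd17b7, a ketosteroid reductase, by 0.17, Tm7sf2, a sterol reductase near background, by 0.15, and Sc5d, the desaturase, by -0.24, all with adjusted p of 0.158 or more in limma.

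None of the 5 SREBP regulators passed in any of the 4 cell types in the main fit. In FRCs their median change was 0.10. Srebf2, the SREBP that chiefly drives sterol genes, measured 10.24, 10.01 and 10.55 in tumor FRCs, against 9.50, 9.96 and 10.14 in naive FRCs, overlapping, with a change of 0.40 (limma adjusted p = 0.31). Its second, dimmer probe changed by 1.01. Srebf1, the SREBP tied to fatty acid genes, changed by -0.28, the escort Scap by -0.16, and the retention protein Insig2 by 0.10. A second probe above background changed by -0.83 for Scap and by -0.09 for Insig2. Insig1, itself a sterol-responsive gene, changed by 0.35 on its brightest probe without overlap (limma adjusted p = 0.53) and by 0.87 and 0.94 on its 2 other probes above background.

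Of the 5 tested fatty acid genes, Elovl6 alone rose in FRCs, and the median change was -0.02. Elovl6, which lengthens palmitate, measured 10.71, 11.09 and 10.53 in tumor FRCs, against 9.35, 9.64 and 9.84 in naive FRCs. The change was 1.17 (SE 0.31, 2.24-fold, limma adjusted p = 0.0198) without overlap. Scd1, the stearoyl-CoA desaturase, ran the other way at 11.40, 11.63 and 11.43 in tumor FRCs, against 12.28, 12.36 and 12.13 in naive FRCs. The groups stood apart and the spread within each was small, but the change of -0.77 had an adjusted p of 0.195 with the spread pooled over cell types in limma. With FRC pools fitted alone, its adjusted p was 0.0117 in limma, and with array weights 0.0121. Of all 13163 genes 2450 and 5214 passed in these 2 fits.

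Acly, which makes cytosolic acetyl-CoA from citrate, changed by -0.03, and Scd2, a desaturase whose gene neighbours Scd1 on chromosome 19, by 0.00. Fasn, the fatty acid synthase, lay around the background level on its only probe, at 5.21 to 5.76 in tumor FRCs and 5.44 to 5.75 in naive FRCs. No difference in Fasn or Acaca could be seen at that signal. Stard4, a carrier of cholesterol between membranes, had a change of 0.73 (limma adjusted p = 0.275) with overlapping groups.

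**Figure D2:**
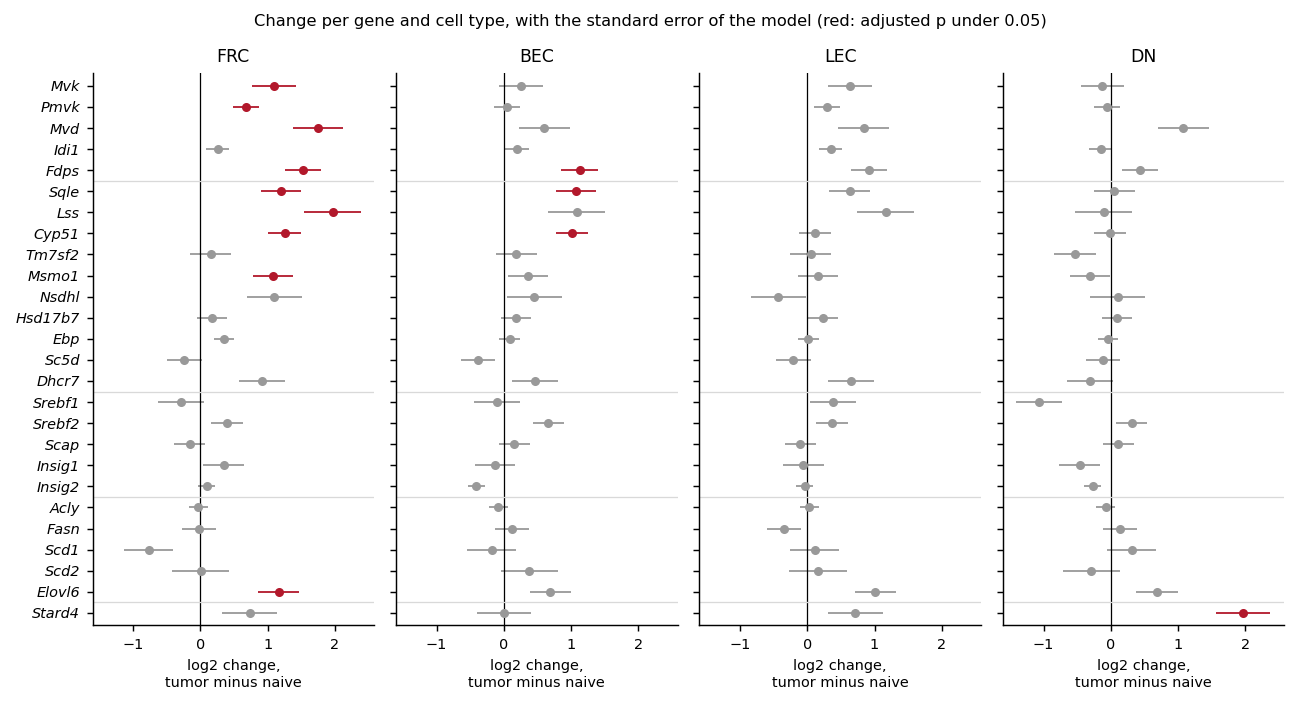
Log2 change, tumor minus naive, with the standard error of the model for each tested gene, by cell type. Red points passed an adjusted p of 0.05: 9 in FRCs, 3 in BECs, none in LECs and 1, Stard4, in DN cells.

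Among the tumor FRC pools, replicate 2 was highest in all 9 genes that rose and replicate 3 lowest in 8 of them. The calls of Mvd, Fdps, Lss and Cyp51 held in each of 6 fits without 1 FRC pool, that of Sqle in 3, those of Pmvk, Msmo1 and Elovl6 in 2 and that of Mvk in 1. Without tumor replicate 1 the count was 5, where 720 of all 13163 genes passed, against 1380 with all pools. Without tumor replicate 2, naive replicate 1 or naive replicate 2 it was 4, where 482, 582 and 691 of all genes passed. With the methods' t-test after Benjamini-Hochberg adjustment, 1 member passed in FRCs, and that was Scd1, which was lower; 652 of all 13163 genes passed there. With limma's array weights 13 members were higher and 2 lower, while the calls over all genes went up as well, to 5214 of 13163, against 1380 without the weights. In the bead-level values without background correction, which served as an alternative, the change was 1.04 for Mvd, 1.27 for Lss and 0.62 for Mvk, and these calls held.

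Other transcripts moved beside these genes. All 3 cell cycle markers tested (Top2a, Cdk1, Birc5) rose in FRCs, and their summed level was 11.999 to 12.859 in tumor pools and 8.509 to 9.459 in naive pools. Of 6 myeloid markers 2 rose, Csf1r and Cd14, with a summed level of 11.21 to 11.92 in tumor FRCs and 9.75 to 10.45 in naive FRCs, while Adgre1 and Tyrobp were below background in all pools. Of 4 B cell markers none passed (8.26 to 9.80 in tumor FRCs, 8.10 to 8.36 in naive FRCs), with Ms4a1 below background, and of 6 leukocyte markers none passed (12.32 to 13.54 in tumor FRCs, 11.03 to 11.70 in naive FRCs). Of 10 fibroblast markers 1 passed, Bst1, which rose, and their sum was 17.20 to 17.67 in tumor FRCs and 17.56 to 17.64 in naive FRCs. The part of these transcripts in the change of the sterol genes was not tested.

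In BECs 3 of the 26 members were higher in tumor mice, and none was lower. That is 11.5%, against 3.59% of all genes called higher and 1.47% called lower, and the median change was 0.19, against -0.04 over all genes tested. In 5 members every tumor BEC pool lay above every naive pool, against 12.9% of all genes, and in 2 members below, against 13.1%.

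The 3 genes had also risen in FRCs. Fdps measured 11.87, 12.33 and 11.45 in tumor BECs, against 10.91, 10.94 and 10.42 in naive BECs, a change of 1.13 (2.18-fold, limma adjusted p = 0.0192). Sqle measured 10.9999, 11.124 and 10.136 in tumor BECs, against 9.677, 9.741 and 9.615 in naive BECs, a change of 1.08 (2.11-fold, limma adjusted p = 0.0436). Cyp51 measured 8.93, 9.37 and 8.44 in tumor BECs, against 8.19, 7.62 and 7.89 in naive BECs, a change of 1.02 (2.02-fold, limma adjusted p = 0.0182).

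No groups overlapped in these 3 genes, and tumor replicate 2 was the highest and tumor replicate 3 the lowest pool of each. Lss measured 7.73, 8.49 and 7.03 in tumor BECs, against 6.80, 7.04 and 6.15 in naive BECs, with a slight overlap and an adjusted p of 0.15 in limma. The second, dimmer Lss probe changed by -0.08 in BECs. Insig2 ran lower without overlap, at 10.30, 10.15 and 10.31 in tumor BECs, against 10.67, 10.62 and 10.70 in naive BECs. It missed the threshold with a change of -0.41 (limma adjusted p = 0.063). In bead-level values with or without background correction Insig2 passed as lower (limma adjusted p = 0.0435 and 0.0362). With array weights it passed too (limma adjusted p = 0.0042), where 3981 of all genes passed. Srebf2 ran higher without overlap, with a change of 0.66 (limma adjusted p = 0.112).

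No BEC call held in every fit. None of the 3 held with BEC pools fitted alone, where 129 of all 13163 genes passed. None held without tumor replicate 1, tumor replicate 2 or naive replicate 3, where 241, 183 and 263 of all genes passed. Without naive replicate 2, 1 held, and 671 of all genes passed. Without tumor replicate 3, 4 members passed, Lss included, and 1364 of all genes passed, against 666 with all pools. The 3 cell cycle markers rose in BECs, at a summed level of 12.20 to 13.43 in tumor pools and 9.04 to 9.54 in naive pools. Of 4 B cell markers 1 rose, Fcrla, and the sum was 12.60, 13.39 and 9.91 in tumor replicates 1, 2 and 3, against 8.96 to 10.14 in naive BECs. The tumor pools that were high in B cell markers were thus also the higher ones in Fdps, Sqle and Cyp51. The cell cycle sum had the same order, at 13.36, 13.43 and 12.20 in tumor replicates 1, 2 and 3. No leukocyte marker of 6 passed (12.74 to 15.35 in tumor BECs, 12.70 to 12.92 in naive BECs). The part of these transcripts in the BEC result was not tested.

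In LECs none of the 26 members passed, against 0.775% of all genes called higher and 0.137% called lower. At an unadjusted p under 0.05, 5 were higher and none was lower, against 667 higher and 492 lower of all 13163 genes, and the median change was 0.20, against 0.00 over all genes tested. In 10 members every tumor LEC pool lay above every naive pool, against 11.3% of all genes, and in 1 below, against 9.27%. Those 10 included all 5 mevalonate genes, whose changes ran over 0.29 to 0.92.

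Fdps measured 12.10, 12.69 and 12.52 in tumor LECs, against 11.45, 11.49 and 11.61 in naive LECs, a change of 0.92 (limma adjusted p = 0.152). Lss measured 7.96, 8.94 and 8.43 in tumor LECs, against 7.43, 7.27 and 7.12 in naive LECs, a change of 1.17 (limma adjusted p = 0.325). The second, dimmer Lss probe changed by 0.01 in LECs. Elovl6 measured 8.94, 9.25 and 8.66 in tumor LECs, against 7.79, 8.08 and 7.94 in naive LECs, a change of 1.01 (limma adjusted p = 0.175). In all 3 the groups stood apart, yet the differences did not pass in the fit over all genes. Cyp51 changed by 0.11 in LECs, with overlapping values. The 3 cell cycle markers rose in LECs (summed level 11.71 to 12.85 in tumor pools, 8.37 to 9.55 in naive pools), and no B cell marker of 4 or leukocyte marker of 6 passed. The part of the cell cycle markers was not tested.

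In DN cells 1 member was higher and none lower, which is 3.85% of the members, against 4.76% of all genes called higher and 2.61% called lower. The share of members called higher thus lay below that of all genes. The median change was -0.05, against -0.07 over all genes tested. Groups stood apart in 1 member above and 2 members below, Srebf1 and Insig2, against 7.98% of all genes in each direction.

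The DN gene was Stard4 (chr18:33199138-33213862), which measured 9.95, 10.12 and 9.11 in tumor DN pools, against 7.37, 9.04 and 6.87 in naive DN pools. The change was 1.97 (SE 0.41, 3.92-fold, limma adjusted p = 0.00571). The groups did not overlap, but tumor replicate 3 and naive replicate 2, the pools that varied most, nearly met. The call held in all 6 fits without 1 DN pool, and without naive replicate 2 the change was 2.61. With DN pools fitted alone, however, Stard4 did not pass (limma adjusted p = 0.367), and neither did any other of the 13163 genes. In the bead-level values without background correction its change was 1.31, and it passed.

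Mvd measured 8.89, 8.08 and 7.66 in tumor DN pools, against 6.41, 7.82 and 7.16 in naive DN pools, overlapping, with a change of 1.08 (limma adjusted p = 0.0852). Srebf1 ran lower, at 6.68, 7.22 and 7.60 in tumor DN pools, against 8.91, 7.69 and 8.11 in naive DN pools, a change of -1.07 (limma adjusted p = 0.0634) without overlap. The summed level of 10 fibroblast markers was 15.04, 15.44 and 16.27 in tumor DN pools, against 15.38, 16.52 and 15.21 in naive DN pools, highest in naive replicate 2. Without that pool, 5 members passed, with Mvd and Stard4 higher and Dhcr7, Srebf1 and Insig1 lower, and 1950 of all 13163 genes passed, against 970 with all pools. Without tumor replicate 3, 3 passed, with Mvd and Stard4 higher and Srebf1 lower, and 2141 of all genes passed.

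Transcripts of other cells moved strongly in the DN fraction. Of 9 blood endothelial markers 5 rose, among them Pecam1 and Tie1, at a summed level of 14.69 to 14.91 in tumor DN pools and 13.27 to 14.30 in naive DN pools. Of 4 B cell markers 3 rose (10.74 to 14.16 in tumor DN pools, 8.33 to 8.95 in naive DN pools), of 6 leukocyte markers 3 rose (13.05 to 15.92 in tumor DN pools, 12.35 to 12.63 in naive DN pools), and of 4 Schwann cell markers 1 fell (12.11 to 13.42 in tumor DN pools, 13.64 to 14.26 in naive DN pools). The 3 cell cycle markers rose as well, at 11.18 to 13.23 in tumor DN pools and 8.05 to 8.72 in naive DN pools. Stard4 itself was far higher in naive BECs, with a mean of 11.74, than in naive DN pools, with a mean of 7.76. The part of endothelial or B cell transcripts in the Stard4 result was not tested.

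**Figure D3:**
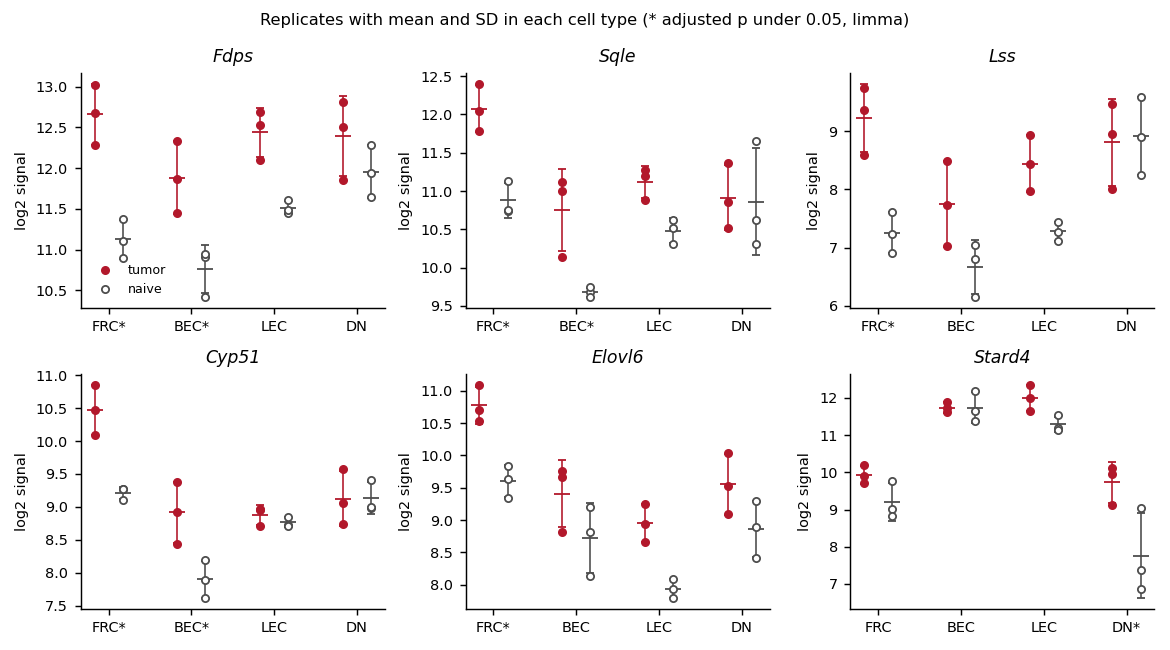
Log2 signal of 6 genes in the 3 tumor pools (filled, left) and 3 naive pools (open, right) of each cell type, with mean and SD, and a star where the adjusted p was under 0.05. Tumor pools of FRCs lay above naive pools in Fdps, Sqle, Lss, Cyp51 and Elovl6, while in DN pools only Stard4 stood apart.

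Whether the change differed between cell types was tested with an F test over the 4 changes. None of the 26 members passed, against 1.31% of all genes, and 5 (Lss, Cyp51, Msmo1, Insig2 and Stard4) had an unadjusted p under 0.05 in limma. The lowest adjusted p was that of Cyp51, 0.0943. None of the 156 differences between pairs of cell types passed either. The nearest was that of Cyp51 between FRCs and DN cells, where a change of 1.25 in FRCs stood against -0.01 in DN cells, a difference of 1.26 (SE 0.34, limma adjusted p = 0.0786). For Lss, FRCs and DN cells differed by 2.07 (SE 0.60, limma adjusted p = 0.0995), and for Stard4, BECs and DN cells by -1.97 (SE 0.57, limma adjusted p = 0.183). On the second, dimmer Lss probe the change was 0.09 in FRCs and -0.81 in DN cells. The larger count of calls in FRCs thus went with no difference between cell types that passed for a single gene.

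**Figure D4:**
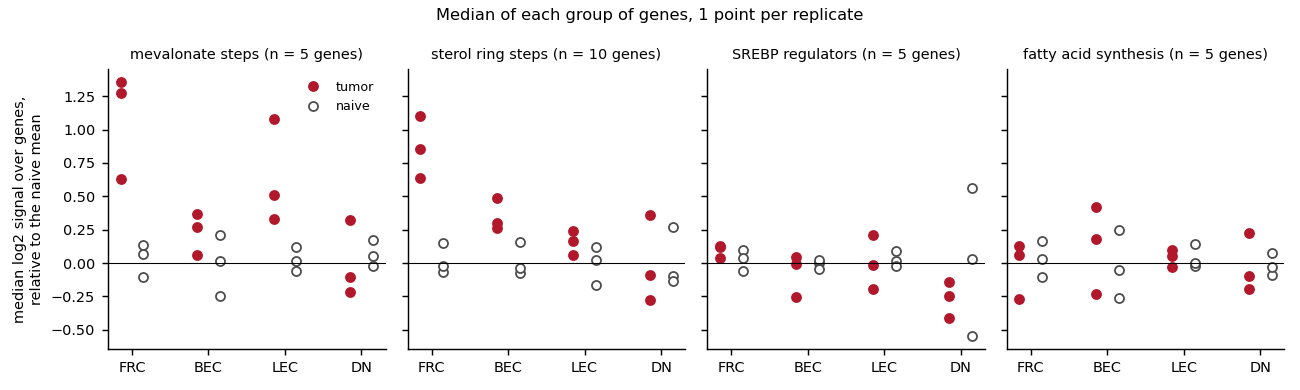
Median over the genes of each step of the log2 signal relative to the naive mean of each gene, with 1 point per pool (tumor filled and left, naive open and right). In FRCs the mevalonate medians were 1.27, 1.36 and 0.63 in tumor pools, against -0.10, 0.13 and 0.07 in naive pools, while SREBP regulators lay between -0.06 and 0.13 in both. Each of these mevalonate tumor medians was the value of Mvk, whose naive FRC values lay below the background level.

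The steps can also be set side by side by the median over their genes in each pool. In FRCs the 10 sterol ring genes had medians, relative to their naive means, of 0.86, 1.10 and 0.64 in tumor pools, against -0.07, 0.15 and -0.02 in naive pools. In BECs the sterol ring medians were 0.30, 0.49 and 0.27 in tumor pools, against 0.16, -0.07 and -0.04 in naive pools. In LECs the mevalonate medians were 0.33, 1.08 and 0.51 in tumor pools, against -0.06, 0.12 and 0.01 in naive pools. Each mevalonate tumor median, in LECs and in FRCs, was the value of a single gene, Mvk. Tumor and naive pools stood apart in each set of medians above and in the mevalonate medians of FRCs. They overlapped in the mevalonate medians of BECs (0.27, 0.36 and 0.06 in tumor pools, against 0.21, 0.02 and -0.25 in naive pools), in the sterol ring medians of LECs (0.06, 0.24 and 0.16 in tumor pools, against -0.16, 0.02 and 0.12 in naive pools), in both medians of DN pools, and in the fatty acid medians of all 4 cell types.

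The levels in naive mice differed between cell types for most members. An F test over the 4 naive groups passed for 19 of 26, against 68.9% of all genes, so the share was near that of all genes. Stard4 differed most, with naive means of 11.74 in BECs, 11.29 in LECs, 9.20 in FRCs and 7.76 in DN pools. BECs and LECs did not differ beyond their spread (limma adjusted p = 0.492), LECs exceeded FRCs (adjusted p = 0.000418) and FRCs exceeded DN pools (adjusted p = 0.00904).

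Pmvk had its low point in naive FRCs, at 7.21, against 8.17 in BECs (limma adjusted p = 0.000512), 8.40 in DN pools and 8.56 in LECs, which did not differ among neighbours. Cyp51 had its low point in naive BECs, at 7.90, against 8.77 in LECs (limma adjusted p = 0.0126), 9.13 in DN pools and 9.22 in FRCs. Hsd17b7 was at 10.81 in naive FRCs and 10.69 in LECs, above 9.97 in DN pools (LECs against DN, limma adjusted p = 0.0132) and 9.66 in BECs. Sc5d was highest in naive LECs, at 7.63, against 6.66 in BECs (limma adjusted p = 0.00901), 6.57 in FRCs and 6.12 in DN pools, with no difference beyond the spread among those neighbours. The probes with the highest naive signal were those of Acly in all cell types, of Scd1 and Fdps in FRCs, of Stard4 and Ebp in BECs, of Fdps and Stard4 in LECs and of Fdps and Ebp in DN pools, which orders probes and not transcripts.

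**Figure D5:**
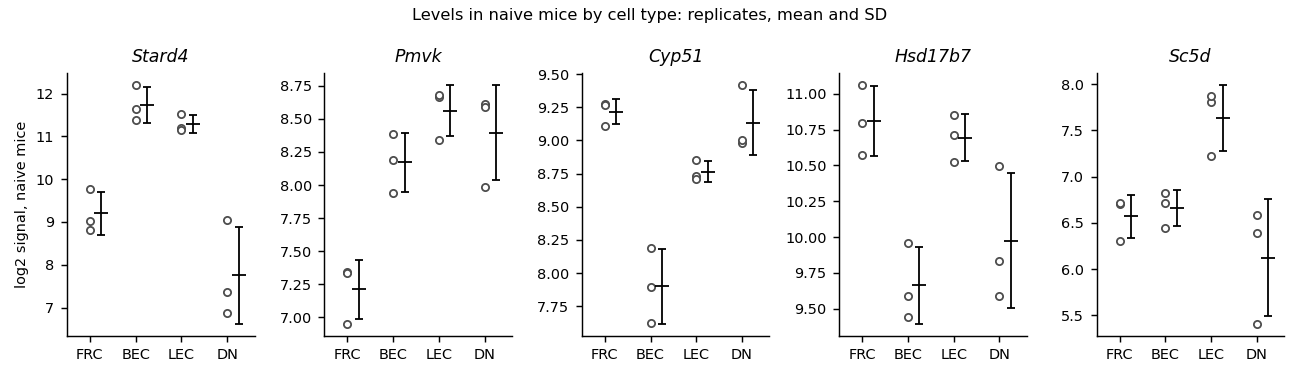
Log2 signal in naive mice of the 5 members with the smallest p in the test between cell types, with 3 pools per cell type and mean and SD beside them. Stard4 ran over 11.14 to 12.20 in the endothelial cells and 6.87 to 9.78 in FRCs and DN pools.

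Neighbouring genes of the routes changed in few cases. Of 6 tested genes of sterol synthesis and uptake outside the set, 1 rose in FRCs, BECs and DN cells each. Tmem97, a sterol-responsive membrane protein, measured 11.12, 11.41 and 10.95 in tumor FRCs, against 10.00, 10.17 and 10.12 in naive FRCs (change 1.06, limma adjusted p = 0.0358). In BECs Tmem97 measured 10.586, 10.995 and 9.751 in tumor pools, against 8.531, 9.066 and 8.276 in naive pools (change 1.82, limma adjusted p = 0.00198). In both cell types the groups stood apart.

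Lbr, the lamin B receptor with sterol reductase activity, rose in DN cells by 1.06 (limma adjusted p = 0.0108). Of 17 other fatty acid genes, 2 rose in FRCs, namely the desaturase Fads2 (9.13, 9.14 and 9.14 in tumor FRCs, against 7.82, 8.09 and 7.93 in naive FRCs, limma adjusted p = 0.0206) and the elongase Elovl1 (change 0.45, limma adjusted p = 0.0251). In DN cells the acyl-CoA synthetase Acsl3 fell by 0.69 (limma adjusted p = 0.0244), and in BECs and LECs none passed.

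Of 9 genes of SREBP processing and degradation and 9 of cholesterol efflux and storage, none passed in any cell type. The median change in FRCs was -0.02 for SREBP processing and -0.34 for efflux and storage. Of 6 oxysterol genes, Cyp7b1, the hydroxylase that turns an oxysterol into the GPR183 ligand, rose in FRCs (11.84, 12.02 and 11.03 in tumor pools, against 10.42, 10.70 and 10.53 in naive pools, limma adjusted p = 0.0283). Cyp27a1, a sterol hydroxylase, fell by 1.71 in BECs (limma adjusted p = 0.0277). Gpr183, a receptor of B cells among others, was 2.22 higher in tumor DN pools (limma adjusted p = 0.0436), beside the B cell markers and with overlapping groups.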

How the data were processed

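Signals were measured on Illumina mouse bead arrays, with 48 strips from 24 pools. The log2 values were summarised per probe and strip by the authors before they were deposited; their background correction and normalization are not given in the sources used here. Bead intensities, deposited as scanner output of 1 value per bead, served alternatives only. A strip held 863780 to 1044181 beads (18 to 22 for the median probe), and the number of arrays limits the precision.

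The deposited log2 values were then quantile normalized, strips of a replicate averaged, and probes kept where a group mean exceeded the background level of 5.61. Of 45281 probes 34885 had 1 annotated gene and 18 had several, which were not named. The brightest probe stood for a gene. All 8 groups were fitted together with limma 3.58.1 in R 4.3.3 (residual df 16), with Benjamini-Hochberg adjustment over all genes at 0.05. Promoter windows came from RefSeq tables. Figures were drawn with matplotlib 3.10.9.

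The members and lists were chosen with earlier results of these data known. Named with values were members that passed, the 3 with the largest change in each cell type, pathway genes that passed, and the 5 members whose naive levels differed most; others were chosen after their values were seen. Deviations of same-numbered tumor and naive pools from their group means correlated weakly in LECs (r of 0.2, 0.23 and 0.15) and FRCs (0.25, 0.026 and 0.09). In BECs they were 0.042, -0.17 and -0.22, and in DN cells -0.035, -0.19 and -0.022. The labels state no pairing, so the pools were fitted as unpaired. In LECs a block for the replicate number changed no call of a member. The scripts were tested on simulated data.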

Additional observations from a re-analysis of the deposited data

How the results depend on the processing

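Alternatives were run for the 19 changes that passed or were among the 3 largest of a cell type, and none of these reversed; of their values, 317 kept direction and side of the threshold, 68 no longer passed and 14 newly passed. With limma's array weights the counts of members called were 15 in FRCs, 9 in BECs, 3 in LECs, 8 in DN cells and 11 for the difference between cell types. The calls over all 13163 genes were then 5214, 3981, 535 and 2488 in FRCs, BECs, LECs and DN cells. For the difference between cell types no count over all genes is given here, so those 11 have no share beside them. With cell types fitted alone 0 passed in BECs and 0 in DN cells, where 129 and 0 of all genes passed. In FRCs fitted alone the 9 genes called in the main fit passed again, with Dhcr7 higher and Scd1 lower besides. There 2450 of all 13163 genes passed. With the methods' t-test, 1 passed in FRCs after adjustment and 0 in BECs and DN cells, where 0 of all genes passed, and unadjusted 5 passed in BECs and 7 in LECs (2200 and 1593 of all genes). Bead means without background correction gave 1 member for the difference between cell types, again without a count over all genes. The FRC median was 0.69 with the mean over all kept probes and 0.48 with the first strip alone. With the replicate number as a block, 8 members passed in FRCs, 1 in BECs, 0 in LECs and 1 in DN cells. Of all 13163 genes 1003, 509, 84 and 708 passed in these cell types. The labels do not state that same-numbered pools belong together.

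Without 1 pool at a time, the count was 4 to 10 in FRCs, 0 to 4 in BECs, 0 in LECs and 1 to 5 in DN cells. Over all 13163 genes it was 482 to 1423 in FRCs, 183 to 1364 in BECs, 11 to 187 in LECs and 311 to 2141 in DN cells. For the difference between cell types 0 to 3 members passed, with 1 without BEC tumor replicate 3 and 3 without DN naive replicate 2. No count over all genes is given for that test. The medians ran over 0.31 to 0.47 in FRCs and 0.15 to 0.33 in BECs. The cause of these shifts was not tested. Dim probes such as those of Idi1, Fasn and Tm7sf2 limit what could be seen, and so does the number of arrays.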
